A study of Mus musculus with 2 samples.

Results

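The genes described here encode the exchangeable subunits of the mammalian SWI/SNF (BAF) chromatin remodeling complex. The 10 genes, *Actl6a*, *Actl6b*, *Dpf1*, *Dpf2*, *Dpf3*, *Phf10*, *Ss18*, *Ss18l1*, *Smarca2* and *Smarca4*, were taken by their symbols from the 32285 genes of the count tables, and all 10 were found. They were followed from progenitors to neurons in single cells of 2 wild-type mouse libraries from embryonic day 14.5, prepared with the 10x Genomics 3′ v3.1 chemistry after papain dissociation. The source given for the tissue is brain hemispheres, and the study describes dorsal telencephalon of C57BL/6J embryos. The series' design text calls the embryos EomesMllt3 controls, and the sample titles read EoMltt3 and WT. The labels give the genotype as wild type and name no further allele or agent. How many embryos entered each library is not spelled out in the labels or the methods.

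The BAF complex uses ATP to move and eject nucleosomes, and it is assembled from subunits of which several come as alternative paralogs. During neurogenesis progenitor complexes, which carry the actin-related protein encoded by *Actl6a*, the PHD finger subunits encoded by *Dpf2* and *Phf10*, and SS18, give way to neuronal complexes that carry the products of *Actl6b*, *Dpf1*, *Dpf3* and *Ss18l1* (CREST). The ATPases BRG1 (*Smarca4*) and BRM (*Smarca2*) are mutually exclusive motors of the complex and are not strictly divided between progenitors and neurons.

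The 2 libraries, replicates 1 and 3, held 64182006 and 93295807 unique molecular identifiers (UMIs) in 6163 and 8870 cell barcodes. After filtering and removal of predicted doublets 5184 and 6952 cells remained, which fell into 29 clusters. In the libraries as a whole the 7 dorsal telencephalon markers summed to 1274 and 1199 counts per 1000000 UMIs (CPM), the 7 ventral markers to 132 and 30.9 CPM and the 5 hindbrain and spinal cord markers to 0.0527 and 0.0782 CPM, of which 4 and 1 were at 0. Replicate 1 thus held more ventral cells: 212 against 26 CGE interneuron-like and 233 against 9 LGE neuron-like cells. The libraries shared 23 barcodes, 16 of them among the kept cells. Classes were named from marker genes, and the 10 genes were left out of the genes used for clustering. There were 768 and 1792 radial glial cell (RGC)-like cells, 489 and 873 intermediate progenitor cell (IPC)-like cells, 1274 and 1725 newborn projection neuron-like cells, 1323 and 1254 projection neuron-like cells and 334 and 218 interneuron-like cells of the medial ganglionic eminence (MGE). A cluster of 715 cells that expressed markers of both newborn and more mature projection neurons stayed unnamed and is given as the unnamed cluster. Another unnamed cluster, of 87 cells, is not described. All UMIs of a class in a library were summed, so each class had 2 values, and levels are in CPM of that sum.

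Promoter sequence is shown for *Actl6a*, whose level fell toward neurons, and for *Actl6b*, *Dpf1* and *Dpf3*, the genes that rose most from RGC-like to projection neuron-like cells. Each window holds the 250 bases before the transcription start in RefSeq (GRCm38.p6), on the coding strand from 5′ to 3′. The *Actl6a* gene spans chr3:32708546-32726973, and in its window, chr3:32708296-32708545 on the plus strand, capitals mark the 3 matches to the GC box (GGGCGG or CCGCCC on the other strand). The *Actl6b* gene spans chr5:137553361-137569582, and its window, chr5:137553296-137553545 on the plus strand, has capitals at 3 CCAAT boxes (CCAAT or ATTGG). For *Dpf1* (gene chr7:29303952-29317592; window chr7:29303755-29304004, plus strand) and *Dpf3* (gene chr12:83213751-83487736; window chr12:83487737-83487986, minus strand) the capitals mark 2 and 3 CCAAT boxes. Of *Actl6b* and *Dpf1*, the outermost gene start lies inside the window, so part of it is transcribed in another RefSeq model.
Actl6a: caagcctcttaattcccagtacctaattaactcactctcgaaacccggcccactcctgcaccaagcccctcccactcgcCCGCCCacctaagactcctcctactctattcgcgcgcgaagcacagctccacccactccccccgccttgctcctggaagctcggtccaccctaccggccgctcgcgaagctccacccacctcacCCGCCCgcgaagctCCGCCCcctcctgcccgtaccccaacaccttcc
Actl6b: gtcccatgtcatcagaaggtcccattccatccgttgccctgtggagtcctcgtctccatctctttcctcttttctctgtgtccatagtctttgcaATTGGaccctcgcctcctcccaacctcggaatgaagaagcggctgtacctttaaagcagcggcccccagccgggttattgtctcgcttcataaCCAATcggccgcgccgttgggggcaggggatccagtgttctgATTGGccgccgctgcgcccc
Dpf1: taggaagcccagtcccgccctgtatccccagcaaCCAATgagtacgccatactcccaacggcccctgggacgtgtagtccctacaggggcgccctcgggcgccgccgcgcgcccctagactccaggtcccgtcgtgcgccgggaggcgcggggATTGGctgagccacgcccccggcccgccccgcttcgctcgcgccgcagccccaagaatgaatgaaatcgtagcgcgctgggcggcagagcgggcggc
Dpf3: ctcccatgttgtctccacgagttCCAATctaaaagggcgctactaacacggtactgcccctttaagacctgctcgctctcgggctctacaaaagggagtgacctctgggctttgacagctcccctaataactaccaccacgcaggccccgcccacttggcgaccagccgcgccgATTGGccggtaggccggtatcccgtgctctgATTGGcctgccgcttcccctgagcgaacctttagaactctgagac

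Windows were matched for 9 of the 10 genes. Of these, *Actl6b*, *Dpf1*, *Dpf2* and *Dpf3* held a CCAAT box, as did 33.8% of 32851 promoter windows of the same length. A GC box was found in 7 of the 9, with 4 in *Dpf1* and 5 in *Phf10*, against 32.7% of all windows. *Actl6b* and *Dpf2* had none. No window of the 9 contained TATAAA, which 12.4% of all windows held. An E-box (CANNTG), whose letters can overlap a CCAAT box, was present in 5 of the 9 and in 66.2% of all windows. The hexamer GGACAG was present in *Dpf2* (18.7% of all windows) and CCGGAA in *Smarca2* (12.03%). Both strands were searched. CpG dinucleotides numbered from 15 in *Actl6b* to 51 in *Phf10*, above the median of 6 over all windows. The motifs to be printed were chosen after the counts were seen, and they are descriptions of the letters only.

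A short regulatory sequence is shown because *Actl6a* is a known target of miR-9-3p, a neural microRNA. The mature sequence, the same at 3 loci in the RefSeq table, among them *Mir9-3* at chr7:79505318-79505339 (plus strand), is given with its seed, bases 2 to 8, in capitals. The 3′ untranslated region (UTR) of the *Actl6a* transcript from GENCODE vM39 is 377 bases long and holds 1 match to the seed, at bases 38 to 44, in capitals below.
miR-9-3p: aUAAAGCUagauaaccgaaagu
Actl6a site: acgtctgtAGCTTTAgtacactc

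Among the 10 genes, *Actl6a* and *Smarca2* each had 1 seed match, and the other 8 had none. The same 7 letters occurred in 12.2% of 20854 3′ UTRs of all lengths and in 2.81% of the 2708 that are 250 to 500 bases long. These are matches of letters, and no binding was measured in these libraries.

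From RGC-like to projection neuron-like cells, all 10 genes passed the test: 6 rose and 4 fell. The genes that rose were *Actl6b*, *Dpf1*, *Dpf3*, *Smarca2*, *Ss18l1* and *Smarca4*, and those that fell were *Ss18*, *Actl6a*, *Phf10* and *Dpf2*. Over the 15981 genes tested, 31.7% rose and 32.6% fell in the same comparison, so a change between these classes was common. The median log2 difference was 1.49 for the 10 genes and -0.02 over all genes tested. Calls are from edgeR's quasi-likelihood test on the class sums, with a Benjamini-Hochberg adjusted p under 0.05 over all genes tested. The direction and call of all 10 held under each of the 13 alternatives with a test that were run.

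*Actl6b*, the neuronal actin-related subunit, changed most. It stood at 3.30 CPM in replicate 1 and 2.40 CPM in replicate 3 in RGC-like cells, from 34 and 53 UMIs. In IPC-like cells it reached 11.1 and 14.0 CPM, in newborn projection neuron-like cells 84.7 and 78.0 CPM, in the unnamed cluster 110 and 111 CPM, and in projection neuron-like cells 130 and 145 CPM. No class in this series overlapped its neighbour. The fitted difference between projection neuron-like and RGC-like cells was 5.75 (SE 0.165) on the log2 scale, 53.9-fold, with an adjusted p of 7.5e-09. The RGC-like level lay within the range of the non-neural classes, 0.658 to 14.6 CPM (the latter in microglia), and near the 3.96 and 4.65 CPM of meningeal cells. The 14.6 CPM came from only 11 and 33 microglia. It also lay above the IPC-like values, so the range alone does not mark background. The meningeal 3.96 CPM of replicate 1 is the level of 3 UMIs, and the lower end of the range, 0.658 CPM, lay below both RGC-like values. The RGC-like level was thus not told apart from background, and the fold may be relative to background.

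*Actl6a*, its progenitor counterpart, which also belongs to the INO80 and TIP60 complexes, was measured at 114 and 127 CPM in the RGC-like class. IPC-like cells, with 113 and 123 CPM, overlapped them. Newborn projection neuron-like cells had 66.2 and 83.2 CPM, the unnamed cluster 73.7 and 83.9 CPM, and projection neuron-like cells 40.3 and 49.0 CPM. The level in neurons was therefore lower but well above 0, with 661 and 725 UMIs in the projection neuron-like sums. The difference between projection neuron-like and RGC-like cells was -1.23 on the log2 scale (SE 0.137, adjusted p = 3.09e-05), 2.34-fold lower.

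Among the PHD finger subunits, which read histone tails, *Dpf1* was at 10.5 and 8.86 CPM in the RGC-like class and 10.4 and 8.21 CPM in IPC-like cells. It reached 42.3 and 40.1 CPM in newborn projection neuron-like, 82.5 and 81.2 CPM in the unnamed cluster and 95.7 and 104 CPM in the projection neuron-like class. The progenitor classes overlapped each other and lay below every one of these neuronal values. The difference between projection neuron-like and RGC-like cells was 3.56 (SE 0.124, adjusted p = 2.06e-08), 11.8-fold. *Dpf3* was at 15.9 and 12.4 CPM in RGC-like, 7.66 and 7.46 CPM in IPC-like, 18.3 and 19.4 CPM in newborn projection neuron-like and 89.3 and 147 CPM in the projection neuron-like class. Its replicates stood furthest apart in the last class, and even the lower value exceeded all values of the earlier classes. That difference was 3.26 (SE 0.259, adjusted p = 2.76e-06), 9.55-fold. The level of *Dpf3* in RGC-like cells lay within the range of the non-neural classes, 0 to 19.5 CPM. That of *Dpf1* was close to its non-neural range, 3.68 to 8.26 CPM, but above it in both replicates. The 8.26 CPM of *Dpf1* came from only 11 and 33 microglia and so rests on few UMIs.

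The PHD finger subunits of progenitor complexes fell by smaller amounts. *Phf10*, which belongs to the PBAF form of the complex, was at 33.5 and 34.1 CPM in the RGC-like class. It had 16.2 and 12.9 CPM in IPC-like, 17.7 and 15.6 CPM in newborn projection neuron-like and 14.3 and 15.9 CPM in the projection neuron-like class. Only the RGC-like values stood apart. *Dpf2*, a subunit of the canonical complex, was at 33.1 and 34.8 CPM in RGC-like, 36.6 and 43.3 CPM in IPC-like, 27.3 and 25.4 CPM in newborn projection neuron-like and 15.1 and 17.99 CPM in the projection neuron-like class. The IPC-like values were above the RGC-like values without passing the test, and the neuronal values lay below both. From RGC-like to projection neuron-like cells *Phf10* fell 1.94-fold and *Dpf2* 1.79-fold (adjusted p = 0.000211 and 0.000206).

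SS18 and its paralog CREST occupy the same position in the complex, and CREST is a calcium-responsive transactivator. *Ss18* was at 70.5 and 75.7 CPM in RGC-like and 65.6 and 66.1 CPM in IPC-like cells. Levels of 28.1 and 34.7 CPM followed in newborn projection neuron-like cells and of 24.2 and 24.6 CPM in the projection neuron-like class. *Ss18l1* ran the other way, with 8.74 and 9.36 CPM in RGC-like, 16.9 and 17.9 CPM in IPC-like, 30.6 and 28.5 CPM in newborn projection neuron-like and 32.2 and 33.7 CPM in the projection neuron-like class. The groups of *Ss18l1* did not overlap between any of these classes. Against RGC-like cells, projection neuron-like cells had 2.6-fold lower *Ss18* (adjusted p = 9.96e-06) and 4.09-fold higher *Ss18l1* (adjusted p = 1.76e-07).

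Both ATPase genes rose. *Smarca2* was at 70.7 and 67.6 CPM in RGC-like, 69.97 and 58.6 CPM in IPC-like, 156 and 102 CPM in newborn projection neuron-like and 291 and 275 CPM in the projection neuron-like class. The progenitor classes overlapped, and replicate 1 exceeded replicate 3 in every one of these classes. *Smarca4* was at 150 and 164 CPM in RGC-like, 213 and 229 CPM in IPC-like, 253 and 277 CPM in newborn projection neuron-like and 251 and 277 CPM in the projection neuron-like class. The newborn and projection neuron-like values overlapped almost completely. The difference between projection neuron-like and RGC-like cells was 2.23 (SE 0.185, adjusted p = 3.79e-06) for *Smarca2* and 0.94 (SE 0.108, adjusted p = 3.71e-05) for *Smarca4*, 4.69-fold and 1.92-fold. Annotated genes overlap *Smarca2*, *Dpf3*, *Phf10* and *Ss18*, and how the counting divided their reads was not tested.

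**Figure D1:**
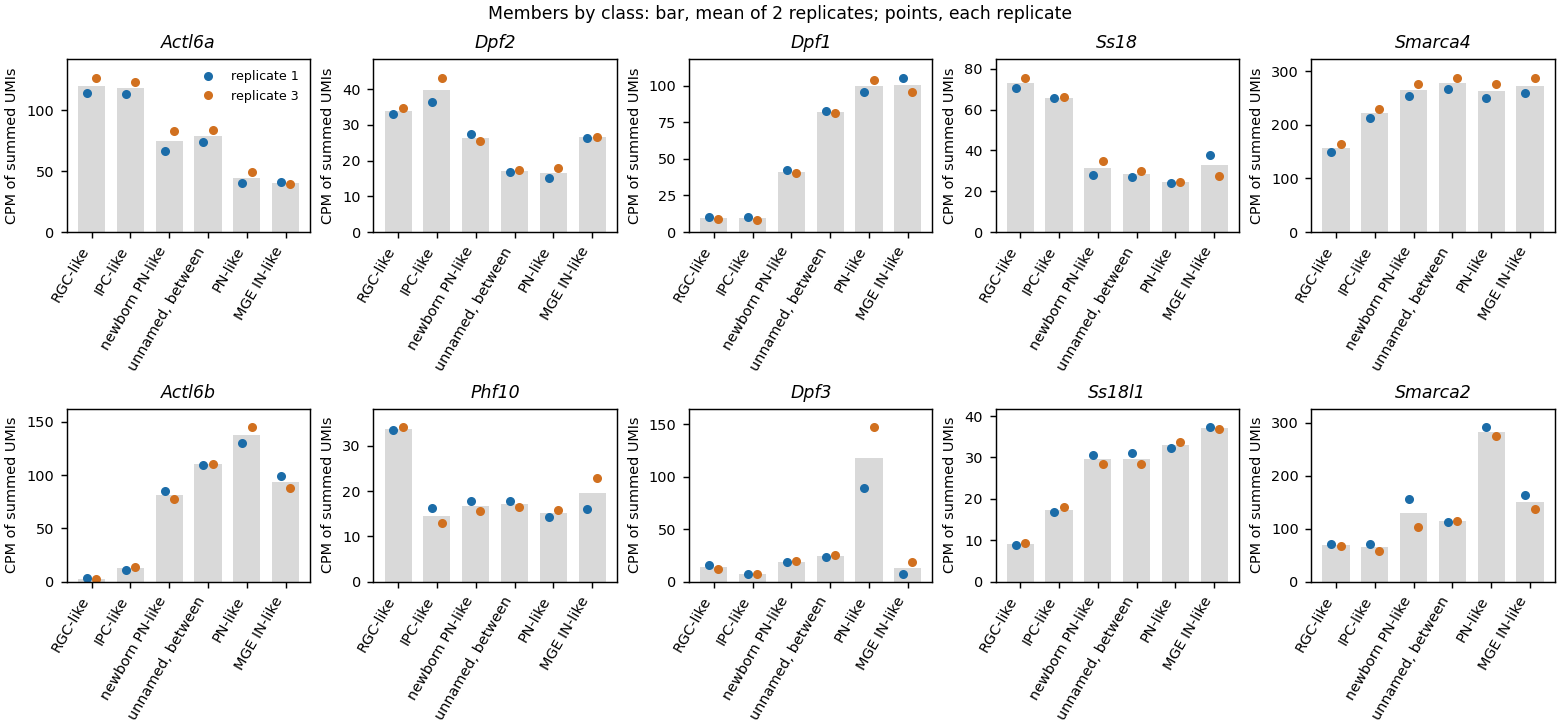
Level of each of the 10 genes in CPM of the summed UMIs (y axes, linear from 0) in RGC-like, IPC-like, newborn projection neuron-like, unnamed, projection neuron-like and MGE interneuron-like cells (x axes). Bars are means of the 2 replicates and points the replicates (blue 1, orange 3). *Actl6b* goes from 2.85 to 138 CPM and *Actl6a* from 120 to 44.7 CPM between RGC-like and projection neuron-like cells.

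The changes did not fall at the same step. Between RGC-like and IPC-like cells, 3 of the 10 genes rose and 1 fell, against 17.8% and 21.1% of all genes tested. *Actl6b* (log2 difference 2.18, adjusted p = 1.68e-05), *Ss18l1* (0.97, adjusted p = 0.000154) and *Smarca4* (0.54, adjusted p = 0.00348) were higher, and *Phf10* was lower (-1.18, adjusted p = 0.000247). *Dpf3* differed by -0.83 and missed the threshold (adjusted p = 0.054). It passed in the same direction under 8 of 13 alternatives, among them the replicate as a block (-0.84, adjusted p = 0.0398). The *Actl6b* difference rested on how cells were grouped. It was 0.57 (adjusted p = 0.0584) with coarser clusters and turned to -0.91 (adjusted p = 0.00167) with predicted doublets kept. With doublets kept 1 of the 10 genes was higher and 4 were lower, against 1865 higher and 2996 lower of the 15738 genes tested. *Ss18l1* stayed higher (0.43, adjusted p = 0.0187), and *Smarca4* lost its call (0.26, adjusted p = 0.0843). *Dpf1* (-0.90, adjusted p = 0.00238) and *Dpf3* (-2.72, adjusted p = 0.000853) joined *Actl6b* and *Phf10* among the lower genes. The 10 projection neuron markers summed to 2818 and 2781 CPM in RGC-like and 4753 and 5057 CPM in IPC-like cells, and their part in the difference was not tested.

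Most calls came at the step from IPC-like to newborn projection neuron-like cells, where 6 genes rose and 3 fell (18.6% and 16.2% of all genes). *Actl6b* rose by 2.75 on the log2 scale (adjusted p = 1.32e-06) and *Dpf1* by 2.23 (adjusted p = 2.34e-06). *Dpf3* (1.39, adjusted p = 0.00525), *Smarca2* (1.10, adjusted p = 0.00134), *Ss18l1* (0.84, adjusted p = 0.000245) and *Smarca4* (0.35, adjusted p = 0.0299) were higher as well. *Ss18* (-0.97, adjusted p = 0.000368), *Actl6a* (-0.57, adjusted p = 0.00934) and *Dpf2* (-0.51, adjusted p = 0.00968) were lower. *Phf10* differed by 0.30 and did not pass. *Smarca4* lost its call when sums were scaled by library size only, and *Smarca4* and *Actl6a* when G1 progenitors alone were used. *Dpf2* lost its call in thinned cells, with coarser clusters and with a stricter filter on cells.

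Between newborn and more mature projection neuron-like cells 4 genes rose and 2 fell (11.2% and 11% of all genes). *Dpf3* had the largest difference, 2.70 (adjusted p = 8.68e-05), followed by *Dpf1* with 1.34 (adjusted p = 4.23e-05), *Smarca2* with 1.20 (adjusted p = 0.00127) and *Actl6b* with 0.82 (adjusted p = 0.00128). *Actl6a* was lower by -0.68 (adjusted p = 0.0062) and *Dpf2* by -0.60 (adjusted p = 0.00669). *Ss18*, *Ss18l1*, *Phf10* and *Smarca4* did not pass. Under 3 of 13 alternatives, coarser clusters, finer clusters and the stricter filter on cells, *Ss18* passed as lower. *Ss18l1* passed as higher under 1, coarser clusters. *Actl6a* lost its call (-0.42, adjusted p = 0.0677) when the unnamed cluster was counted with the projection neurons.

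The balance between alternative subunits was followed as the log2 ratio of their UMIs within a class, which does not depend on scaling and is compared between classes only. The ratio of *Actl6b* to *Actl6a* was -5.11 and -5.72 in RGC-like and -3.34 and -3.14 in IPC-like cells. It was 0.36 and -0.09 in newborn projection neuron-like, 0.58 and 0.40 in the unnamed cluster and 1.69 and 1.56 in projection neuron-like cells. From the first to the last class it moved by 7.04 ± 0.348 (SD, n = 2), 132-fold. The RGC-like end rests on *Actl6b* UMIs that were not told apart from background, so this fold may be relative to background. The ratio of *Dpf1* plus *Dpf3* to *Dpf2* plus *Phf10* went from -1.33 and -1.69 in RGC-like to 2.66 and 2.89 in projection neuron-like cells, a shift of 4.29 ± 0.419 (19.5-fold), with IPC-like cells at -1.54 and -1.84. *Ss18l1* to *Ss18* shifted by 3.45 ± 0.0342 (10.9-fold), from -3.01 and -3.02 to 0.41 and 0.46. *Smarca2* to *Smarca4* shifted least, by 1.29 ± 0.0168 (2.44-fold), from -1.08 and -1.28 to 0.22 and -0.01, with the lowest values, -1.61 and -1.97, in IPC-like cells. Both replicates moved up for all 4 ratios, by more than the replicate spread, and no test was run on them. With predicted doublets kept the first ratio moved by 4.45.

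**Figure D2:**
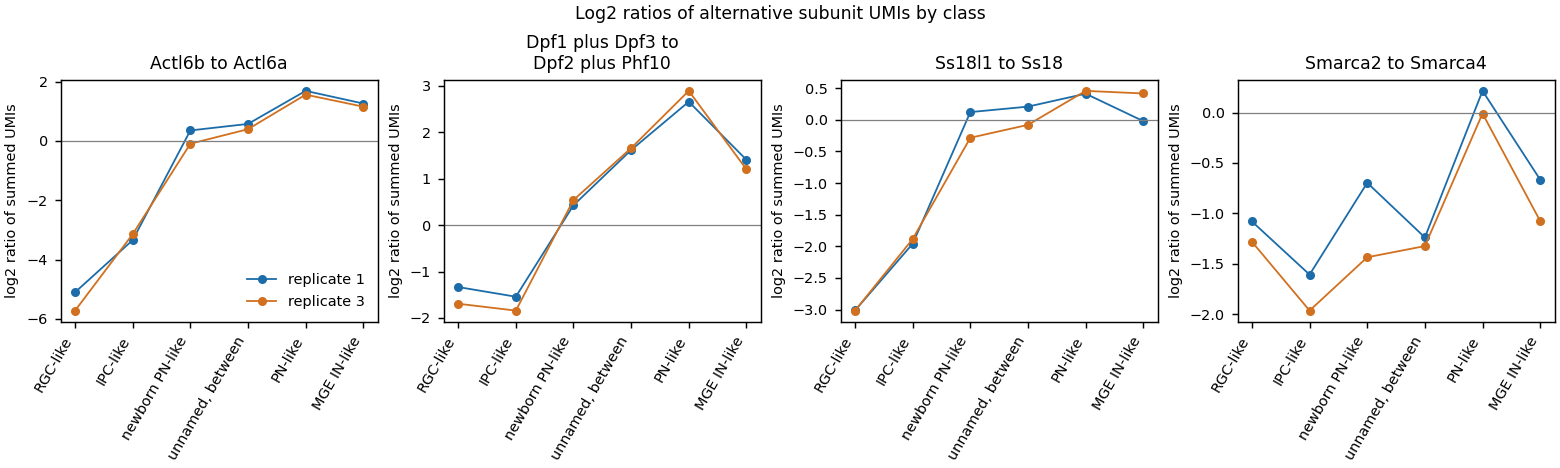
Log2 ratio of the UMIs of alternative subunits (y axes; the genes of each ratio are named in its panel) by class (x axes) for the 4 subunit positions, with points joined by a line for each replicate (blue 1, orange 3). *Actl6b* to *Actl6a* rises from -5.11 and -5.72 in RGC-like to 1.69 and 1.56 in projection neuron-like cells, and *Smarca2* to *Smarca4* shifts least. *Actl6b* in RGC-like cells was not told apart from background.

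Single cells were compared after each was thinned to 3000 UMIs. A UMI of *Actl6b* was found in 1.47% (11 of 746 cells, 95% Wilson interval 0.825 to 2.62) and 0.632% (11 of 1741, 0.353 to 1.13) of RGC-like cells. In meningeal cells, which should lack the gene, the share was 2.13% (1 of 47) and 2.24% (3 of 134), so the RGC-like share was no higher than theirs. With so few meningeal cells the intervals are wide and cannot separate low shares. The *Actl6b* share was 2.89% and 4.40% in IPC-like cells, whose intervals also overlap the meningeal ones. In the class sums the IPC-like level, 11.1 and 14.0 CPM, was above the meningeal level. Shares of 19.8% and 17.4% were found in newborn projection neuron-like, 28.5% and 24.3% in the unnamed cluster and 32.5% and 32.6% in projection neuron-like cells. The median depths before thinning were 12408 and 11589 UMIs in RGC-like, 12290 and 11803 in projection neuron-like and 14576 and 11358 in meningeal cells. Unthinned, *Actl6b* was seen in 4.04% and 2.62% of RGC-like, 71.1% and 69.9% of projection neuron-like, and 6.38% and 5.11% of meningeal cells. In thinned cells *Actl6a* was found in 28.4% and 31.02% of RGC-like and 11.9% and 14.2% of projection neuron-like cells, with 12.8% and 11.2% in meningeal cells, where it is a general subunit and no measure of background. Thinning left out 22 and 51 shallower RGC-like cells.

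Both paralogs were detected together in 3.41% and 4.08% of projection neuron-like cells, where the product of the single shares is 3.88% and 4.62%. In newborn projection neuron-like cells the joint share was 3.08% and 3.75% and the product 3.41% and 4.01%. In these 2 classes the joint share stood slightly below the product in both replicates. It stood above the product in both replicates of the other 3 classes compared, with 0.670% and 0.230% against 0.419% and 0.196% in RGC-like, 1.24% and 1.43% against 0.780% and 1.40% in IPC-like and 2.64% and 3.23% against 2.43% and 2.70% in MGE interneuron-like cells. The joint shares rest on few cells in the smaller classes. They were taken over 746 and 1741 thinned RGC-like cells. For MGE interneuron-like cells they were taken over fewer than the 334 and 218 cells of the class, as thinning left out the shallower ones. The gaps to the product were not set against counting error. No test was run on the joint share, and the part of remaining doublets in it was not tested.

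**Figure D3:**
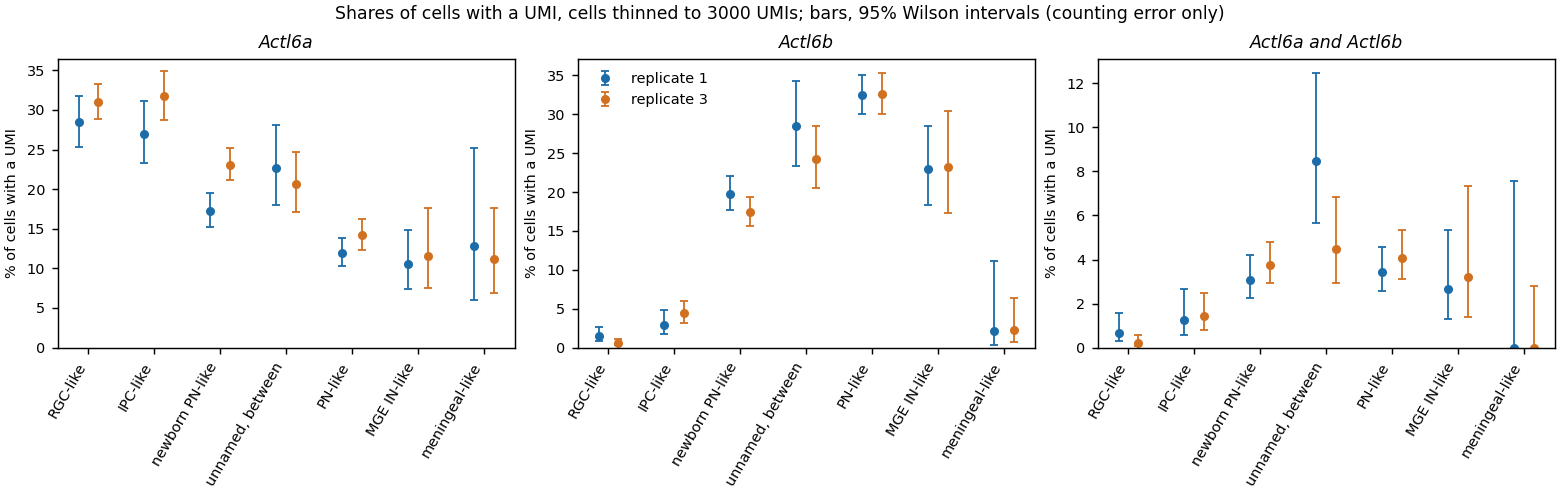
Percent of cells with at least 1 UMI of *Actl6a*, of *Actl6b* and of both (panels, y axes) by class (x axes; blue replicate 1, orange replicate 3), each cell thinned to 3000 UMIs, with 95% Wilson bars that cover counting error only. *Actl6b* lies at 32.5% and 32.6% in projection neuron-like cells and at 1.47% and 0.632% in RGC-like cells, against 2.13% and 2.24% in meningeal cells.

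The order of the 9 neural classes, the unnamed cluster included, differed between the paralogs. For *Actl6b* the Cajal-Retzius-like neurons (143 ± 24.7 CPM, SD, n = 2) and projection neuron-like cells (138 ± 10.4) came first and overlapped. The unnamed cluster followed at 110 ± 0.604, then MGE interneuron-like (93.8 ± 7.74), LGE neuron-like (89.9 ± 10.1) and newborn projection neuron-like cells (81.4 ± 4.72). MGE interneuron-like cells overlapped LGE neuron-like cells, and these overlapped the newborn class. CGE interneuron-like cells (58.4 ± 12.2), IPC-like cells (12.6 ± 1.996) and RGC-like cells (2.85 ± 0.64) stood apart from their neighbours. For *Actl6a* RGC-like and IPC-like cells overlapped at the top (120 ± 9.21 and 118 ± 7.27 CPM), and of the 9 neural classes ranked MGE interneuron-like cells were lowest (40.4 ± 1.24), overlapping projection neuron-like cells (44.7 ± 6.14). Replicate 3 contributed only 26 CGE interneuron-like and 9 LGE neuron-like cells to this order.

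Interneurons, which are born in the ventral telencephalon, gave a second neuronal lineage. Relative to projection neuron-like cells, 3 of the 10 genes were lower and 1 higher in MGE interneuron-like cells, against 19.6% and 14.4% of all genes. *Dpf3* was at 6.89 and 18.4 CPM, from 12 and 20 UMIs, and thus 11.3-fold below projection neuron-like cells (log2 difference -3.50, adjusted p = 9.41e-05). *Smarca2*, with 164 and 136 CPM, was lower by -1.08 (adjusted p = 0.00211), and *Actl6b*, with 99.3 and 88.4 CPM, by -0.71 (adjusted p = 0.00344). *Dpf1* was at 106 and 95.7 CPM, *Ss18l1* at 37.3 and 36.8 CPM and *Smarca4* at 259 and 287 CPM, and none of these differed past the threshold. *Dpf2*, at 26.4 and 26.7 CPM, was higher by 0.51 (adjusted p = 0.0372) and kept its call under 5 of 13 alternatives, with 0.11 (adjusted p = 0.833) in thinned cells. MGE interneuron-like cells were shallower, with medians of 4524 and 4018 UMIs. Scaling by library size only moved the median difference of all genes from -0.07 to 0.09 and the split of calls from 2295 higher and 3129 lower to 3149 and 2346, and the 3 genes called lower stayed lower.

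Within classes the genes also varied. Over the 3 projection neuron-like clusters *Smarca2* ranged from 158 to 364 CPM and *Dpf1* from 93.5 to 103 CPM. *Dpf3* was at 145 and 157 CPM in 2 of them and at 30.002 CPM in the other, of 764 cells, so its class level came mainly from 2 of the 3 clusters. Over the newborn projection neuron-like clusters *Dpf3* ranged from 4.13 to 69.8 CPM, which overlaps that range. Over the 5 newborn projection neuron-like clusters *Dpf1* ranged from 7.66 to 86.4 CPM and *Actl6b* from 37.4 to 163 CPM. The 6 RGC-like clusters held *Actl6b* at 1.82 to 4.21 CPM and *Actl6a* at 70.2 to 144 CPM. Clusters were formed on these cells, so the ranges are descriptions.

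**Figure D4:**
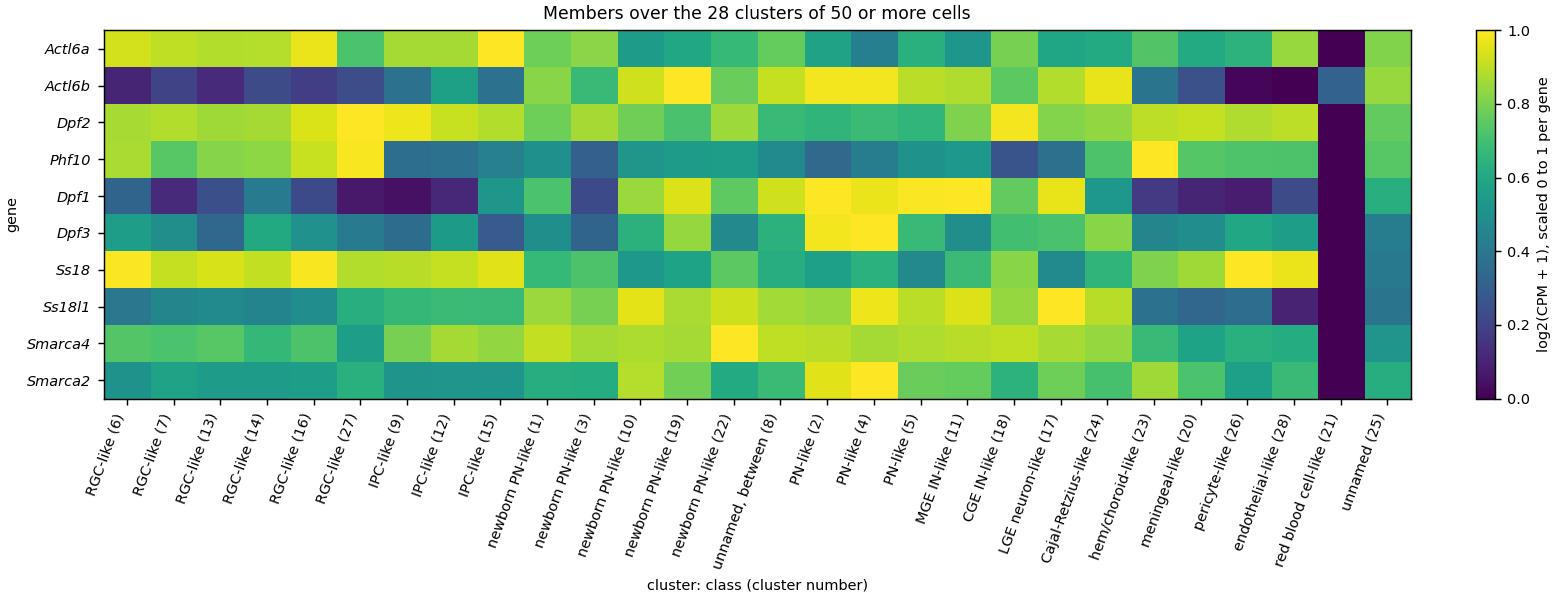
Heat map of the 10 genes (rows) over 28 clusters of at least 50 cells (columns, ordered by class), showing log2(CPM + 1) scaled from 0 to 1 within each gene. Before scaling *Actl6b* lies at 103 to 151 CPM over the projection neuron-like and 1.82 to 4.21 CPM over the RGC-like clusters, and *Actl6a* at 31.1 to 55.5 CPM and 70.2 to 144 CPM.

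Across the 28 clusters, which come from the same 2 libraries, the genes whose log2(CPM + 1) followed *Actl6b* most closely among 7265 genes were *Stmn3* (Pearson r = 0.98), *Sez6l2* (0.97) and *Cdk5r1* (0.96). For *Actl6a* they were *Zfp422* (0.97), *Srsf3* (0.95) and *Asf1a* (0.95). Among the 10 genes the highest correlations were those of *Actl6b* with *Dpf1*, of *Dpf2* with *Ss18* and of *Ss18l1* with *Smarca4*, each 0.84, and the lowest was that of *Actl6b* with *Ss18* (-0.60). *Actl6a* and *Actl6b* had r = -0.36. The clusters include non-neural ones.

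RGC-like cells were further divided by cell-cycle phase called from other genes. *Dpf1* was at 5.78 and 4.002 CPM in G1, 14.3 and 12.6 CPM in S and 10.9 and 8.70 CPM in G2M. It was the 1 gene of the 10 that rose in S against G1 (log2 difference 1.482, SE 0.26, adjusted p = 0.0121), where 8.66% of 12964 genes rose. It was also the 1 gene that rose in G2M against G1 (1.04, SE 0.258, adjusted p = 0.0423), where 8% rose, and DESeq2 did not call it there (adjusted p = 0.13). *Actl6a* was at 93.2 and 116 CPM in G1, 122 and 122 CPM in S and 120 and 137 CPM in G2M. With the replicate as a block it passed in both comparisons (0.26, adjusted p = 0.0429, and 0.34, adjusted p = 0.00772), as did *Ss18* in G2M (0.39, adjusted p = 0.0061), and the genes called rose from 1642 to 3834 in S and from 1630 to 4018 in G2M. The G1 level of *Dpf1* lay within the non-neural range of 3.68 to 8.26 CPM, whose upper end came from only 11 and 33 microglia.

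**Figure D5:**
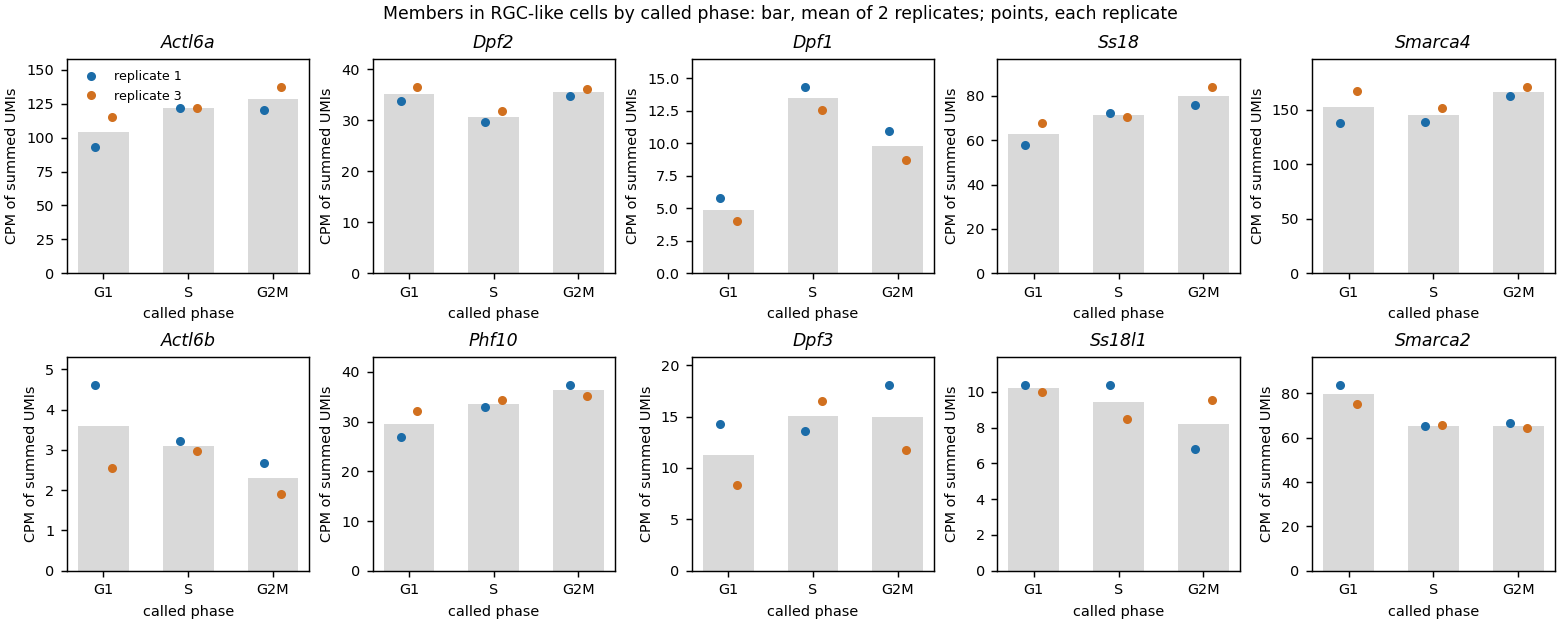
Level of the 10 genes in CPM (y axes, linear from 0) in RGC-like cells called G1, S and G2M (x axes), with bars at the mean of the 2 replicates and points at each replicate (blue 1, orange 3). *Dpf1* is at 4.89 CPM in G1, 13.4 in S and 9.81 in G2M on average.

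The other BAF subunits, 21 genes, were taken for comparison. From RGC-like to projection neuron-like cells 10 rose, 4 fell and 7 did not pass, with a median log2 difference of 0.23. Of all genes tested 31.7% rose and 32.6% fell in this comparison, which is the background for each of the 4 lists. *Bcl11b* (5.61, adjusted p = 2.37e-08), a zinc finger factor of corticospinal neurons that was also 1 of the markers used to name projection neurons, *Bcl11a* (2.19, adjusted p = 5.03e-07) and *Smarcd3* (1.478, adjusted p = 4.95e-06) rose most. *Bcl7c* (-1.59, adjusted p = 1.22e-05), the PBAF subunit *Arid2* (-0.47, adjusted p = 0.00288) and *Brd7* (-0.33, adjusted p = 0.0118) fell most. From RGC-like to IPC-like cells 13 rose and 1 fell, against 17.8% and 21.1% of all genes.

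The partners of *Actl6a* in the INO80 and TIP60 complexes, 27 genes, had a median of 0.03, with 4 higher, 9 lower and 14 not past the threshold between projection neuron-like and RGC-like cells. *Ino80b* (-1.09, adjusted p = 7.15e-05), the AAA+ ATPase *Ruvbl1* (-0.78, adjusted p = 0.000175) and *Uchl5* (-0.75, adjusted p = 0.00123) were the most reduced, and *Meaf6* (0.32), *Epc2* (0.27) and *Yeats4* (0.25) rose. Of 15 other remodeler ATPases 4 rose and 7 fell, with a median of -0.05. *Chd5* (2.94, adjusted p = 0.000462), *Chd3* (2.40, adjusted p = 7.48e-08), both NuRD ATPases, and *Smarca1* (1.43, adjusted p = 5.95e-05) rose, and *Chd7* (-5.25, adjusted p = 1.13e-08), *Hells* (-3.98, adjusted p = 3.05e-08), a gene of cycling cells, and *Chd6* (-1.10, adjusted p = 1.01e-05) fell.

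Genes of the REST repressor, which holds neuronal genes silent in non-neuronal cells, and the host transcripts of miR-9 and miR-124 formed the fourth list. All 12 passed between projection neuron-like and RGC-like cells, 6 up and 6 down, where 31.7% of all genes rose and 32.6% fell. *Rest* was at 44.8 and 47.8 CPM in RGC-like, 5.57 and 3.62 CPM in IPC-like, 5.61 and 2.80 CPM in newborn projection neuron-like and 9.28 and 7.58 CPM in the projection neuron-like class. The drop thus lay between RGC-like and IPC-like cells, and the projection neuron-like level was lower than the RGC-like level by -2.23 (adjusted p = 2.63e-05). *Mir124a-1hg* went from 1.55 and 1.85 CPM in RGC-like to 16.9 and 18.2 CPM in IPC-like, 58.2 and 51.1 CPM in newborn projection neuron-like and 97.1 and 89.8 CPM in the projection neuron-like class (5.79, adjusted p = 6.1e-09). *Mir9-3hg* was lower in projection neuron-like cells, with 99.6 and 95.7 CPM against 327 and 297 CPM in the RGC-like class (-1.47, adjusted p = 6.43e-07). Host transcripts were counted, not the microRNAs. *Mir124-2hg* (2.79), *Rcor2* (1.01), *Kdm1a* (0.98), *Hdac2* (0.51) and *Ehmt2* (0.43) rose, and *Hdac1* (-1.89), *Sin3a* (-0.71), *Rcor3* (-0.44) and *Rcor1* (-0.41) fell. The *Rcor2* difference was -0.044 when G1 progenitors alone were used.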

How the data were processed

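Single-cell 3′ libraries (10x Genomics v3.1) of 2 wild-type samples were used. The deposited counts are UMIs per gene and barcode, made by the authors with Cell Ranger 7.0.0 on mm10 according to the submitters' processing notes. The annotation and the treatment of intronic reads are not given in the sources used here. A cell was kept if it held 1500 to 60000 UMIs, fewer than 10% of them mitochondrial, and predicted doublets were removed by comparison with simulated doublets at 0.8% per 1000 barcodes (710 and 1387 barcodes fell to the filters, 269 and 531 to the doublet call). Cells were clustered by Leiden (leidenalg 0.10.2, 2000 variable genes, 30 components, resolution 1.0), with the 10 genes and the compared lists left out of the variable genes, and classes were named where at least 3 markers were on. Sums of UMIs per class and replicate were tested with edgeR 4.0.16 (quasi-likelihood, TMM) in 1 fit of 10 sums for classes and 1 of 6 sums for RGC-like phases, with DESeq2 1.42.0 as an alternative. The scripts were tested on simulated data. Each replicate gave 1 sum per class, so the replicate number pairs sums by design. Same-numbered sums deviated together weakly or hardly at all for classes (correlations 0.0095 to 0.251) and more for phases (0.338 to 0.404). The main fits had no term for the replicate, and the replicate block was an alternative. With 2 samples, p-values measure the spread between these samples, which may be technical, and Wilson intervals cover counting error only. 3′ UMI counts were not divided by length, so levels are compared between classes and not between genes. Promoters, gene positions and microRNAs came from RefSeq tables on GRCm38.p6 and 3′ UTRs from GENCODE vM39. The genes and lists were chosen with earlier results of these data known. All 10 genes are named, and of each list the 3 genes with the largest differences in either direction past the threshold, or all of the REST list. For *Actl6a* and *Actl6b*, the 3 most correlated genes were named. The alternatives were other scaling, tools, filters, resolutions, depths and cell sets, the replicate block, and leaving out each replicate (values only).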

Additional observations from a re-analysis of the deposited data

How the results depend on the processing

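All 10 calls between projection neuron-like and RGC-like cells held under the 13 alternatives with a test. Of 870 values of the genes over all alternatives, 800 counted as the same, 20 passed newly, 18 no longer passed, 30 changed sign and 2, from leaving out a replicate without a test, moved. Where a test was run, the same means that direction and side of the threshold were kept. Leaving out replicate 1 or replicate 3 gave 70 values each, of which 69 counted as the same. For these, without a test, the same means only within the SD of the 2 replicates. Sign changes of differences that were not called are among the values so counted. With 2 replicates, a single value lies within that SD almost by arithmetic. These labels therefore do not measure how steady a difference is, although they are included in the 800 and in the 427 below. Of 450 values of the list genes, 427 counted as the same by these rules, 22 no longer passed and 1 changed sign. The cause of the changes was not tested. Library-size scaling moved the median of all genes between projection neuron-like and RGC-like cells from -0.02 to -0.22.

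The number of genes past the threshold fell with cells thinned to 3000 UMIs, where fewer genes were tested, from 6213 to 4037 for IPC-like against RGC-like and from 5424 to 3590 for MGE interneuron-like against projection neuron-like cells. For S against G1 it was 1642, and 2726 without the filter on low counts and 3834 with the replicate block. For G2M against G1 it was 1630, and 2772 and 4018. With the replicate block 2 of the 10 genes passed in S and 3 in G2M, where 3834 and 4018 of 12964 genes passed. Without the filter 3 of the 10 passed in G2M, where 2772 of 22199 genes passed. DESeq2 called 0 of the 10 genes in G2M, against 1195 of 12964 genes. There 2 of the 10 had an unadjusted p under 0.05, and edgeR called 1. For classes the block, like several other settings, made the *Dpf3* difference between IPC-like and RGC-like cells pass, and the block ended no call. The share of RGC-like cells with *Actl6a* was 16.4% at 1500 and 45.4% at 5000 UMIs, and of projection neuron-like cells 6.08% and 19.2%. For *Actl6b* it was 0.363% and 1.69%, with 2.64% with predicted doublets kept, in RGC-like and 17.5% and 48.5% in projection neuron-like cells. With predicted doublets kept, the shifts of the ratios were 4.45 (*Actl6b* to *Actl6a*), 3.25 (*Dpf1* plus *Dpf3* to *Dpf2* plus *Phf10*), 2.95 (*Ss18l1* to *Ss18*) and 1.06 (*Smarca2* to *Smarca4*), and with G1 progenitors alone 6.55, 4.81, 3.05 and 1.04. The pooled sums gave 1.33 for *Smarca2* to *Smarca4*.

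Among the genes a call reversed for *Actl6b* between IPC-like and RGC-like cells, at -0.91 with predicted doublets kept. The other sign changes under settings with a test were of differences that did not pass. For IPC-like against RGC-like cells these were *Actl6a* (-0.024 with library sizes only, -0.00011 with DESeq2, -0.045 at resolution 1.5 and -0.054 thinned), *Dpf1* (0.025 without the filter on low counts, 0.026 with the unnamed cluster counted as newborn and 0.025 as projection neurons), *Ss18* (0.053 with doublets, 0.080 at resolution 0.6, 0.024 with G1 progenitors) and *Smarca2* (0.053 with the stricter filter on cells, 0.034 at resolution 0.6). *Phf10* was at -0.13 at resolution 0.6 for newborn against IPC-like cells, and for projection neuron-like against newborn cells at 0.049 with doublets and 0.072 with the stricter filter, where *Smarca4* was at -0.0075 with library sizes only. For MGE interneuron-like against projection neuron-like cells these were *Actl6a* (0.10 with doublets), *Dpf1* (0.019 with library sizes only and 0.023 thinned), *Phf10* (-0.0084 without the filter, -0.11 with doublets), *Ss18l1* (-0.17 without the filter, -0.17 with the stricter filter, -0.0055 and -0.0032 at resolutions 0.6 and 1.5, -0.072 and -0.021 with the unnamed cluster as newborn or projection neurons) and *Smarca4* (0.050 with library sizes only, 0.0068 thinned). *Rcor2* went to -0.044 with G1 progenitors. The placings of the unnamed cluster, and leaving out the newborn cluster of lowest depth, were chosen after seeing the data.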
